A study of Homo sapiens with 4 samples.

Results

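Proteasome genes were followed across 4 RNA sequencing libraries of the breast cancer cell line SUM159, which is triple-negative. The members were the 47 protein-coding genes whose symbols begin with PSMA, PSMB, PSMC, PSMD, PSME or PSMG and end with a number, out of 60279 genes listed in each count table. The cells were untreated, treated with palbociclib, treated with indisulam, or treated with the combination, with 1 library per condition. Palbociclib blocks the kinases CDK4 and CDK6, which drive entry into the cell cycle. Indisulam joins the splicing factor RBM39 to DCAF15, a receptor of a ubiquitin ligase, and RBM39 is then degraded by the proteasome. All cells were grown in the same medium with serum, insulin and hydrocortisone, and no vehicle was named for the untreated cells. The labels give 0.5 µM palbociclib and 2 µM indisulam over 10 days. The text on the series gives 2 µM palbociclib and 3 µM indisulam over 16 h, in technical duplicates, and which of these treatments the libraries had could not be settled from the labels. Between 12555908 and 16712174 reads per library fell in genes. Mitochondrially encoded genes took between 4.90% and 7.33% of them.

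The proteasome degrades proteins marked with ubiquitin. Its core particle is a barrel of stacked rings, with alpha subunits (PSMA) at the ends and beta subunits (PSMB) inside, of which PSMB5, PSMB6 and PSMB7 carry the constitutive proteolytic sites. The regulatory particle caps the barrel, and its base of ATPases (PSMC) and other subunits (PSMD) and its lid (PSMD) bind, unfold and feed the substrate. In cells exposed to interferon, PSMB8, PSMB9 and PSMB10 take the places of PSMB5, PSMB6 and PSMB7, and PSME1 and PSME2 form an alternative cap. This form, the immunoproteasome, is abundant in leukocytes and is known for producing peptides for antigen presentation. The PSMG products and PSMD5, PSMD9 and PSMD10 are chaperones that assemble the core and the base.

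Each condition had 1 library, so no test between conditions was made and no difference had a replicate check. Read counts were scaled to the same total, and a log2 ratio of scaled counts with a pseudocount of 1 was taken for each comparison. The values in brackets after a ratio are its 95% interval from counting error alone, and variation between cultures is not in it. Genes with a mean of at least 1 CPM, the reads of a gene scaled by the total of its library, were compared, which kept 14269 genes and 45 of the 47 members. PSMA8, a core subunit of the testis, had 0 reads in every library, which allows up to 0.239 CPM in the untreated library by a floor of 3 counts. PSMB11, a core subunit of the thymus, had 0 to 2 reads. The call of a changed gene needed a 2-fold ratio or more and an interval that excluded 0. A scale for the spread between libraries, called the bound here, was taken from how far all compared genes departed from additivity of the drugs. A deviation shared by both libraries with indisulam, or by both with palbociclib, cancels in that departure and is not covered. The bound is 1 robust SD of a single log2 ratio, so that a ratio near the bound is not unusual, and it was 0.28 for genes of 100 CPM or more, 0.26 from 20 to 100 CPM and 0.37 from 5 to 20 CPM. These ranges held 23, 17 and 5 of the members.

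The labelled cell type was checked on 6 markers. ESR1 and PGR, the hormone receptor genes, were at or below 1.11 CPM, and EPCAM, an epithelial surface marker, was at or below 1.115 CPM. VIM, a mesenchymal filament gene, lay between 2643 and 4598 CPM, and CD44 between 706 and 883 CPM. ERBB2 was listed as low or absent in a triple-negative line, but it was measured at 110 to 143 CPM. Receptor protein was not measured in these libraries. Of 8 leukocyte genes, CD3E and MS4A1 had 0 reads in every library, and PTPRC, the leukocyte common antigen, was at 11.1 to 17.5 CPM. The summed level of the leukocyte genes was 26.9 CPM untreated, 43.3 with palbociclib, 29.4 with indisulam and 43.5 with the combination. This sum includes CD74, the invariant chain of class II antigen presentation, at 5.34, 25.4, 7.96 and 27.4 CPM in the same order. CD14 and PTPRC, also in the sum, did not follow CD74. CD14 was at 9.24, 5.44, 3.95 and 4.60 CPM, and PTPRC was lowest with the combination. The part of CD74 in the values of the immunoproteasome genes was not tested. In a bulk library, fewer cells with a transcript and less of it per cell cannot be told apart.

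Most proteasome genes differed little between the libraries. In combination against untreated, 3 of 45 members were called changed, and all 3 were higher: PSMA2, PSMD1 and PSMD14. That was 6.67% of the members, where 23.5% of all compared genes were called and 12.9% were called higher. None was called in palbociclib against untreated (10.7% of all genes), indisulam against untreated (15.1%), combination against palbociclib (16.9%) or combination against indisulam (8.19%). All but 5 members stood at 20 CPM or more, and low counts pass a fold threshold more easily. Among all genes at 20 CPM or more the called shares were 4.89%, 7.47%, 14.3%, 9.17% and 2.86% in palbociclib, indisulam and combination against untreated, combination against palbociclib and combination against indisulam. Summed over the 47 members, the level was 4291 CPM untreated, 4109 CPM with palbociclib, 4528 CPM with indisulam and 5010 CPM with the combination, the highest of the 4.

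**Figure D1:**
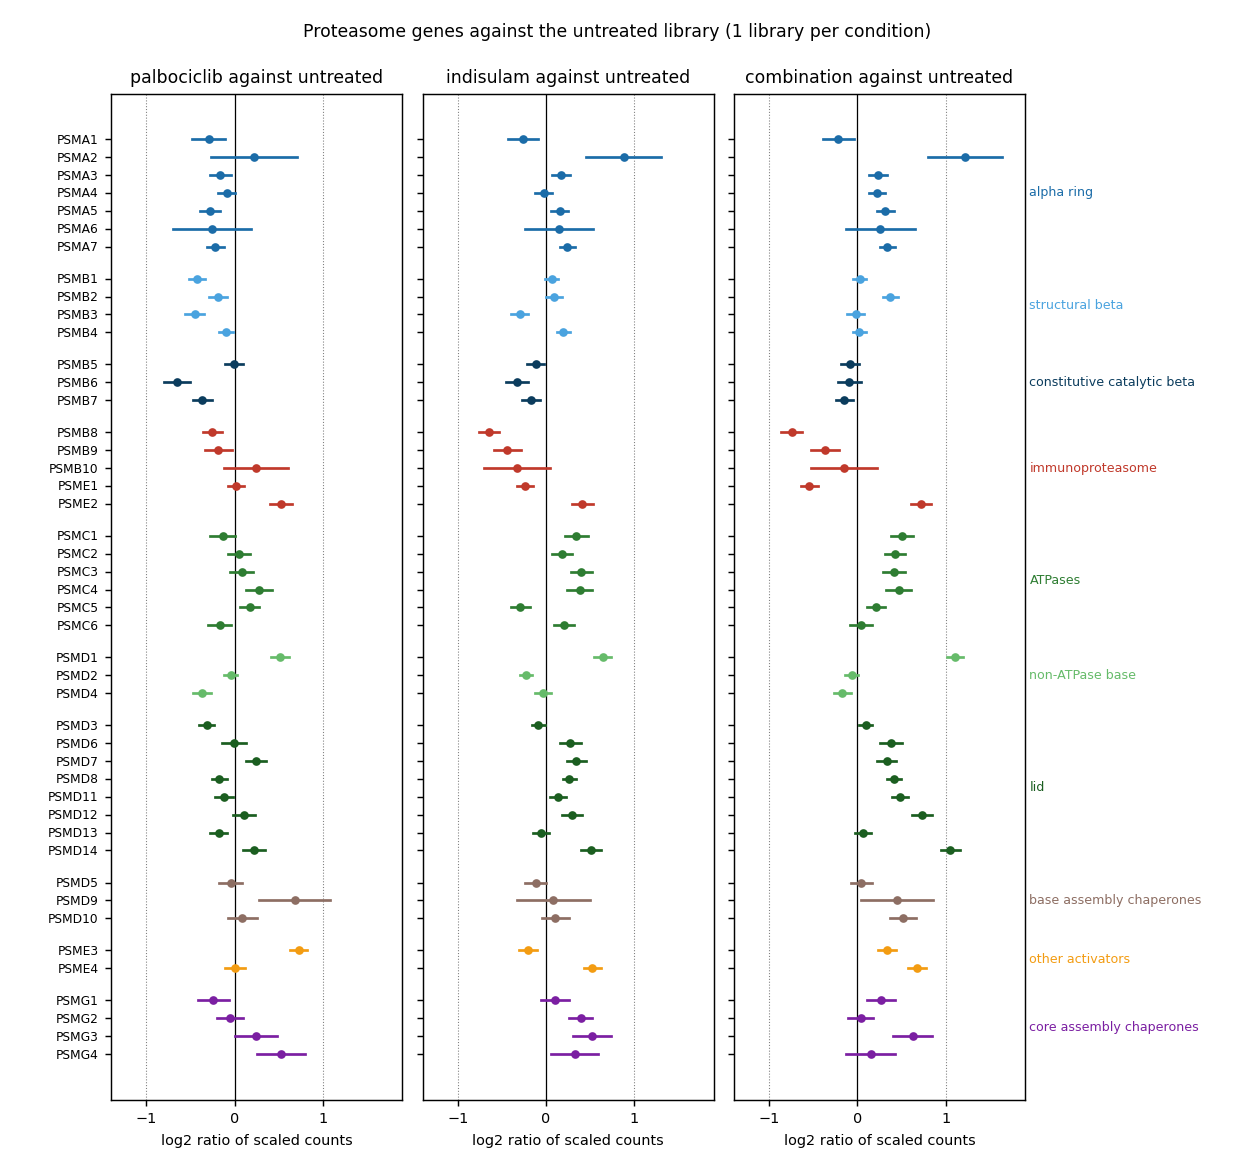
Log2 ratio of scaled counts to the untreated library for the 45 compared members, in rows grouped by role, with 1 panel for each treatment; bars are 95% counting intervals and dotted lines mark 2-fold. In the combination panel PSMA2, PSMD1 and PSMD14 lie beyond the dotted line at 1, and PSMB8 at -0.75 is the lowest of the members.

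Most regulatory particle genes were higher with the combination than untreated. The 17 subunit genes had a median log2 ratio of 0.41 in combination against untreated, beside 0.05 over all compared genes. Of these 17, 13 had an interval above 0 and 1, PSMD4, had one below it, whereas 39.2% of all genes were above and 34.1% below. With indisulam against untreated the median was 0.27, with 12 genes above 0 and 3 below, where the shares over all genes were 36.8% and 29.8%. With palbociclib against untreated it was -0.0039, a value whose sign turned with the scaling, with 5 above and 6 below, where the shares were 28.4% and 31.7%. So most regulatory particle genes stood higher in both libraries with indisulam than untreated, and with palbociclib alone they were found on both sides of 0.

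In the base, PSMD1, a large scaffold of the regulatory particle, was measured at 103 CPM untreated, 147 CPM with palbociclib, 161 CPM with indisulam and 221 CPM with the combination. Each drug library was above the untreated library and the combination library was the highest. The log2 ratio of combination to untreated was 1.10 [1.01, 1.20], which is 3.94 times the bound on the spread, and those of palbociclib and indisulam were 0.52 [0.42, 0.62] and 0.64 [0.55, 0.74]. PSMD1 lies on chromosome 2 at 231056845 to 231173116 on the plus strand of GRCh38. The other large scaffold, PSMD2, which binds ubiquitin shuttles, differed little, with log2 ratios of -0.04 [-0.12, 0.03], -0.23 [-0.30, -0.15] and -0.06 [-0.14, 0.01] with palbociclib, indisulam and the combination. PSMD4, a ubiquitin receptor, was at 140 CPM untreated, 109 with palbociclib, 136 with indisulam and 124 with the combination. It was thus lowest with palbociclib, with a ratio of -0.36 [-0.47, -0.26] to untreated, and the lowest regulatory particle gene in combination against untreated at -0.17 [-0.27, -0.08].

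In the lid, PSMD14, the deubiquitinase that removes ubiquitin chains from substrates, was at 73.4 CPM untreated, 85.7 CPM with palbociclib, 105 CPM with indisulam and 153 CPM with the combination. The order of the libraries was that of PSMD1. Its ratio of combination to untreated was 1.05 [0.94, 1.16], just past the threshold, and it was no longer called with trimmed-mean (TMM) factors (0.96) or median-of-ratios factors (0.98) in place of library totals. PSMD7, the inactive partner of PSMD14 in the lid, was at 89.9 CPM untreated, 106 CPM with palbociclib, 114 CPM with indisulam and 113 CPM with the combination, so that the 3 drug libraries lay close together. PSMD12, a lid scaffold subunit, was at 78.1, 83.9, 96.0 and 130 CPM in the same order of libraries, with a combination ratio of 0.73 [0.62, 0.84]. The smallest ratio of the lid was that of PSMD13, a structural subunit, at 133 CPM untreated, 117 with palbociclib, 128 with indisulam and 139 with the combination, or 0.06 [-0.03, 0.16]. The 8 lid genes had a median of 0.40 in combination against untreated and of 0.50 in combination against palbociclib, with 7 of 8 above 0 in each, where 39.2% and 37.3% of all genes were.

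The 6 ATPase genes, whose products form the ring that unfolds the substrate, moved within a narrow range in combination against untreated, from 0.04 for PSMC6 to 0.51 for PSMC1, with a median of 0.42. PSMC1 was at 62.1 CPM untreated, 56.5 with palbociclib, 78.9 with indisulam and 88.2 with the combination. PSMC6 was at 77.3, 68.7, 89.0 and 79.5 CPM, and its combination interval of -0.08 to 0.16 held 0. PSMC5 went another way with indisulam, at 101 CPM untreated, 113 with palbociclib, 82.3 with indisulam and 117 with the combination. PSMC5 was the 1 ATPase gene below the untreated library with indisulam, at -0.29 [-0.40, -0.18], while the other 5 had intervals above 0.

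The constitutive core particle was lowest with palbociclib, further below the untreated library than the regulatory particle was. Its 14 genes had a median log2 ratio of -0.24 in palbociclib against untreated, beside -0.02 over all genes. Of the 14, 10 had intervals below 0 and none above, where 31.7% of all genes were below and 28.4% above. Among all genes at 20 CPM or more, 39.5% were below and 31.6% above. In indisulam against untreated the median was 0.08, with 6 above 0 and 5 below (36.8% and 29.8% of all genes). In combination against untreated it was 0.12, with 6 above and 2 below (39.2% and 34.1% of all genes), and it was 0.02 without 3 alpha genes that share their transcripts with another gene. The summed level of the 14 genes was 1529 CPM untreated, 1289 CPM with palbociclib, 1560 CPM with indisulam and 1657 CPM with the combination. The regulatory particle genes summed to 1882, 1852, 2082 and 2399 CPM, which is the same order of libraries. In combination against palbociclib 12 of the 14 were above 0 and none below, with a median of 0.44, where 37.3% of all genes were above.

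Among the constitutive catalytic genes, PSMB6, which carries the caspase-like site, was at 74.9 CPM untreated, 47.6 CPM with palbociclib, 59.7 CPM with indisulam and 70.3 CPM with the combination. Both single-drug libraries were below the untreated library, and the combination was close to it. The ratio to untreated was -0.65 [-0.80, -0.51] with palbociclib, 2.50 times the bound on the spread, -0.33 [-0.46, -0.20] with indisulam and -0.09 [-0.22, 0.04] with the combination. PSMB7, which carries the trypsin-like site, was at 124 CPM untreated, 96.4 with palbociclib, 110 with indisulam and 112 with the combination. PSMB5, which carries the chymotrypsin-like site, was at 121, 120, 112 and 114 CPM. PSMB5 was the steadiest of the catalytic genes, with no ratio to untreated beyond -0.12.

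The 4 structural beta genes were all below the untreated library with palbociclib, from -0.10 for PSMB4 to -0.45 for PSMB3. PSMB3 was at 136 CPM untreated, 99.0 CPM with palbociclib, 110 CPM with indisulam and 134 CPM with the combination, the same pattern as PSMB6. PSMB2 was at 135, 118, 143 and 175 CPM in that order of libraries, and was the highest structural beta gene in combination against untreated at 0.37 [0.28, 0.46]. The alpha ring had a median of -0.22 with palbociclib, 0.15 with indisulam and 0.26 with the combination against untreated. PSMA1 had the lowest alpha ratio with the combination, at 41.5 CPM untreated, 33.8 with palbociclib, 34.6 with indisulam and 35.7 with the combination.

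PSMA2 had the highest ratio of any member and the fewest reads of the 45 in the untreated library. It was counted at 62 reads untreated, 73 with palbociclib, 153 with indisulam and 166 with the combination, or 4.94, 5.75, 9.16 and 11.6 CPM. Both libraries with indisulam were above both libraries without it. The ratio to untreated was 0.22 [-0.27, 0.70] with palbociclib, 0.88 [0.46, 1.30] with indisulam and 1.22 [0.80, 1.63] with the combination. The ratio of combination to palbociclib was 0.998, just inside the threshold. These counts cover an unknown part of the gene's reads, since 100% of the exons of its canonical transcript lie also in another annotated gene on the same strand (ENSG00000256646), and reads that fell in more than 1 gene were not counted. PSMA1 (67.0%), PSMA6 (81.4%) and PSMB10 (56.1%) had the same limit over most of their transcript. Without these 4 genes, 2 members were called in combination against untreated, and PSMD1 and PSMD14 were those 2.

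The immunoproteasome genes differed from each other in direction. Of the 5, PSMB8, PSMB9 and PSME1 were lower in both indisulam libraries than in the untreated library, PSME2 was higher in all 3 drug libraries, and the intervals of PSMB10 against untreated held 0. With indisulam the interval of PSMB10 excluded 0, on the lower side, under TMM, median-of-ratios and upper-quartile factors. The median log2 ratio was 0.02 with palbociclib (-0.08 without PSMB10, which shares its transcript), -0.33 with indisulam and -0.37 with the combination, against untreated. It was -0.40 in combination against palbociclib, where 4 of the 5 had intervals below 0, as did 28.6% of all genes.

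PSMB8, which replaces PSMB5, was at 109 CPM untreated, 91.8 CPM with palbociclib, 69.5 CPM with indisulam and 65.0 CPM with the combination. Every drug library was below the untreated library and the 2 with indisulam were lowest. The ratio to untreated was -0.25 [-0.36, -0.14] with palbociclib, -0.65 [-0.76, -0.54] with indisulam and -0.75 [-0.87, -0.63] with the combination. The last is 2.86 times the bound on the spread, and no other member had a lower ratio in that comparison. PSMB9, which replaces PSMB6, was at 55.0 CPM untreated, 48.5 with palbociclib, 40.6 with indisulam and 42.6 with the combination, with ratios of -0.18 [-0.34, -0.03], -0.44 [-0.59, -0.29] and -0.37 [-0.53, -0.21]. PSMB10, which replaces PSMB7, was at 8.76, 10.4, 6.94 and 7.87 CPM, from 110 to 132 reads.

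PSME1 and PSME2, whose products join in 1 ring that opens the core particle, went in opposite directions. PSME1 was at 160 CPM untreated, 162 CPM with palbociclib, 136 CPM with indisulam and 110 CPM with the combination. PSME2 was at 69.5, 99.9, 92.4 and 115 CPM in the same order. PSME1 was thus lowest and PSME2 highest in the combination library, with ratios to untreated of -0.55 [-0.64, -0.45] and 0.72 [0.60, 0.84]. PSME2 has 6 annotated pseudogenes, and reads that aligned to more than 1 place were not counted, so its level is a lower limit. The genes lie near each other on chromosome 14, PSME1 at 24136163 to 24138967 on the plus strand and PSME2 at 24143362 to 24147570 on the minus strand of GRCh38.

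**Figure D2:**
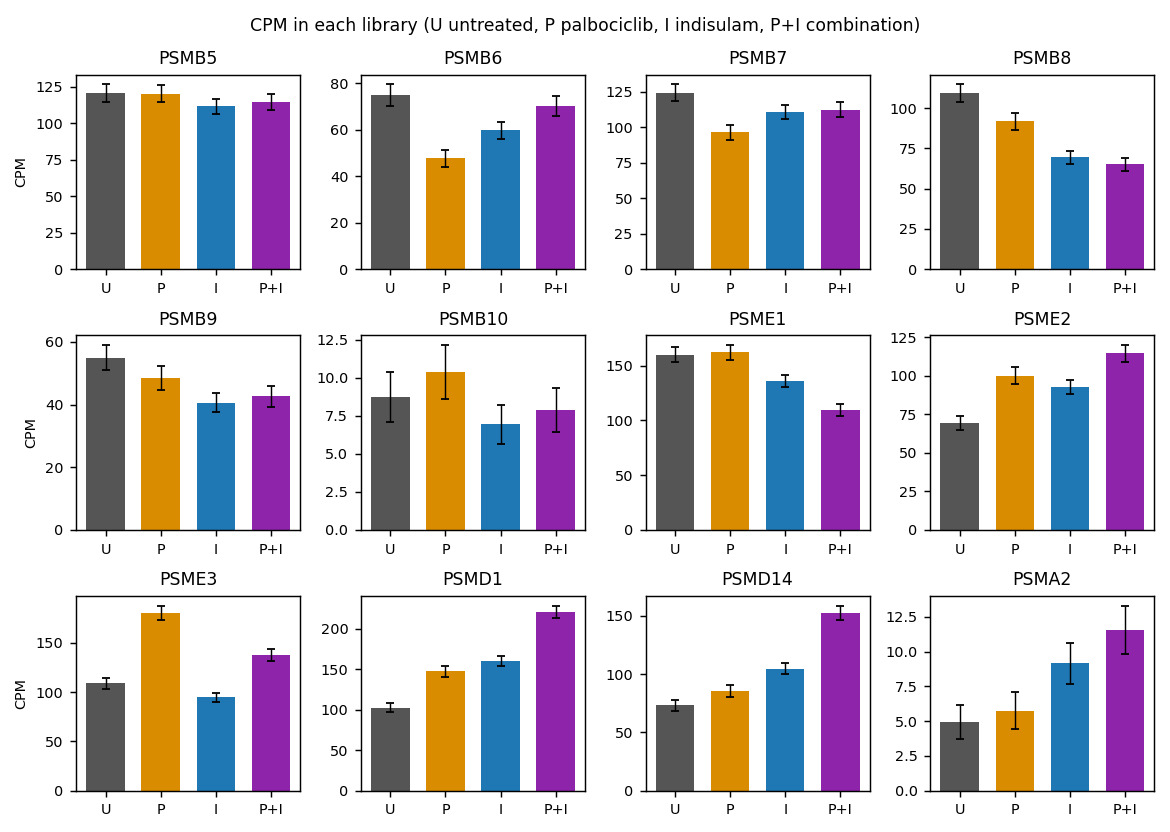
CPM of 12 members in the untreated (U), palbociclib (P), indisulam (I) and combination (P+I) libraries, with a separate vertical axis for each gene; bars are single libraries and error bars are 95% counting intervals. PSMD1, PSMD14, PSMA2 and PSME2 are highest in P+I, PSMB8 and PSME1 are lowest in P+I, and PSMB6 is lowest in P at 47.6 CPM.

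Ratios of reads within a library do not depend on how depth is scaled. For each replaced catalytic gene, the reads of the immunoproteasome gene were divided by those of its constitutive counterpart, with exact binomial intervals. PSMB8 to PSMB5 was 0.904 [0.840, 0.973] untreated, 0.763 [0.707, 0.824] with palbociclib, 0.623 [0.579, 0.671] with indisulam and 0.569 [0.525, 0.617] with the combination. The intervals of the indisulam and combination libraries overlapped each other and neither reached those of the other 2. PSMB9 to PSMB6 was 0.734 [0.665, 0.811] untreated, 1.02 [0.909, 1.14] with palbociclib, 0.680 [0.616, 0.750] with indisulam and 0.607 [0.548, 0.671] with the combination. Here the palbociclib library stood above the other 3, and in it the denominator PSMB6 was low. PSMB10 to PSMB7 had the same order at the top, with 0.0705 [0.0575, 0.0855] untreated, 0.108 [0.0895, 0.129] with palbociclib, 0.0628 [0.0516, 0.0758] with indisulam and 0.0701 [0.0574, 0.0849] with the combination. The 3 ratios of immunoproteasome to constitutive reads therefore did not move together. The ratio of PSMB10 to PSMB7 rests on a partial count, since 56.1% of the canonical exons of PSMB10 are shared with another gene.

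The ratio of PSME1 to PSME2 reads was 2.30 [2.13, 2.50] untreated, 1.62 [1.51, 1.74] with palbociclib, 1.47 [1.38, 1.57] with indisulam and 0.957 [0.892, 1.03] with the combination. It was highest untreated and lowest with the combination, and the intervals of these libraries overlapped with no other. All reads of the regulatory particle divided by all reads of the constitutive core particle gave 1.23 [1.21, 1.25] untreated, 1.44 [1.41, 1.47] with palbociclib, 1.33 [1.31, 1.36] with indisulam and 1.45 [1.42, 1.47] with the combination. All 3 drug libraries were above the untreated library in this ratio, and the 2 with palbociclib were highest.

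**Figure D3:**
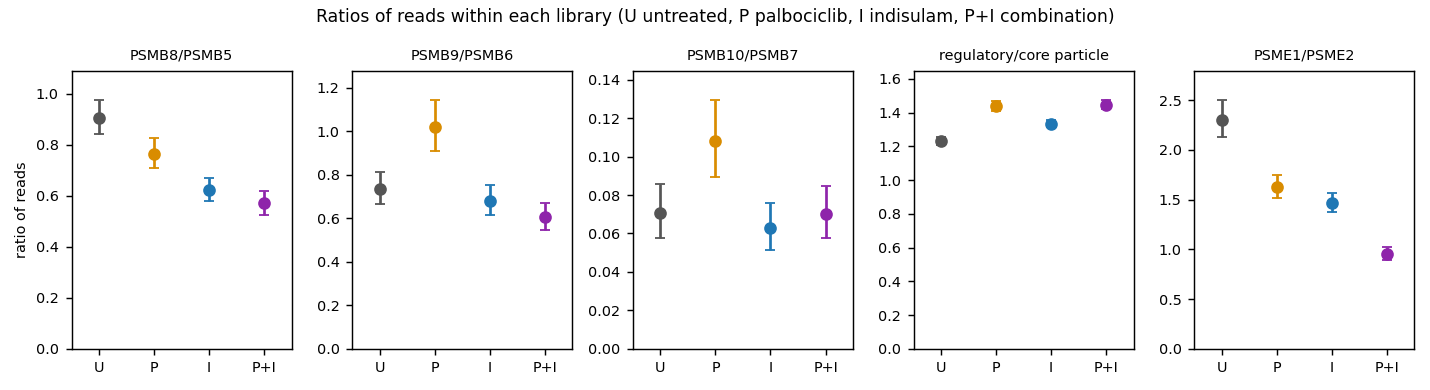
Ratio of reads between pairs of genes or particles within each library (U untreated, P palbociclib, I indisulam, P+I combination); points are single libraries, error bars are 95% exact binomial intervals and each panel starts at 0. PSMB8/PSMB5 goes from 0.904 in U to 0.569 in P+I, PSME1/PSME2 from 2.30 to 0.957, and PSMB9/PSMB6 is highest in P.

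Compared per kilobase of the canonical transcript, the median core particle gene stood above the median regulatory particle gene in each library, for example at 97.5 against 46.9 CPM per kilobase untreated. PSMB4, a structural beta subunit, had the highest level per kilobase of the 47 in each library, from 208 with palbociclib to 256 with indisulam. PSMB8 was at 97.2 CPM per kilobase untreated beside 116 for PSMB5, so the replaced and the replacing subunit were near each other. PSMB10 was counted at 8.97 beside 126 for PSMB7. However, 56.1% of the canonical exons of PSMB10 are shared with another gene, so its count covers an unknown part of its reads.

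The other activators of the core particle differed between drugs. PSME3, whose product forms a nuclear cap, was at 109 CPM untreated, 180 CPM with palbociclib, 94.7 CPM with indisulam and 137 CPM with the combination. Both palbociclib libraries were above both libraries without palbociclib, and the ratio of palbociclib to untreated, 0.73 [0.63, 0.82], was the highest of the 45 members. PSME4, whose product is a large single-chain cap, was at 101 CPM untreated, 102 with palbociclib, 146 with indisulam and 161 with the combination. In PSME4 it was both indisulam libraries that stood above both others, with ratios of 0.53 [0.43, 0.62] and 0.67 [0.58, 0.77] to untreated for indisulam and the combination.

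Among the chaperones of the base, PSMD10, also known as gankyrin, was at 46.8 CPM untreated, 49.7 with palbociclib, 50.2 with indisulam and 66.8 with the combination, and stood apart in the combination library alone at 0.51 [0.37, 0.66]. PSMD5 stayed close to its untreated level, at 76.1, 73.7, 70.0 and 78.5 CPM in that order. PSMD9 was at 6.21, 10.0, 6.58 and 8.50 CPM, from 78 to 127 reads, with a palbociclib ratio of 0.68 [0.28, 1.09]. Among the core chaperones, PSMG3 was at 20.7 CPM untreated, 24.4 with palbociclib, 29.8 with indisulam and 31.965 with the combination, so that both indisulam libraries were above both others. PSMG2 was at 60.4, 58.1, 79.3 and 61.8 CPM and stood apart with indisulam alone, at 0.39 [0.27, 0.52]. The 4 core chaperones had a median of 0.36 with indisulam and 0.21 with the combination against untreated.

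With a 1.5-fold threshold, 3 members were called in palbociclib against untreated (PSMB6 lower, PSMD9 and PSME3 higher), or 6.67% beside 24.8% of all genes. In indisulam against untreated 3 were called (PSMA2 and PSMD1 higher, PSMB8 lower) beside 31.4% of all genes. In combination against untreated 8 were called, 7 of them higher, beside 42.5%. In combination against palbociclib 9 were called beside 32.8%, and all 9 were higher, namely PSMA2, PSMA5, PSMC1, PSMD1, PSMD8, PSMD11, PSMD12, PSMD14 and PSME4. By comparison, 18.4% of all genes were called higher in that comparison. None was called in combination against indisulam, where 22.2% of all genes were.

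Each drug was compared without and with the other drug, in pairs of libraries with none in common. For palbociclib, 10 of 45 members lay on opposite sides of 0 in the 2 estimates with both intervals excluding 0, which was 22.2% of the members and 8.04% of all genes. Intervals exclude 0 more easily at higher counts, and the share among genes at 20 CPM or more was not taken here. None of the 10 passed the bound on the spread in both estimates. In all 10 the ratio was below 0 without indisulam and above 0 with it: PSMA5, PSMA7, PSMB2, PSMB3, PSMB6, PSMD3, PSMD8, PSMD11, PSMD13 and PSMG1. PSMB6 showed the widest gap, with -0.65 for palbociclib against untreated and 0.24 for combination against indisulam. For indisulam, 5 members did so (11.1%, beside 6.31% of all genes), which were PSMB3, PSMB6, PSMB7, PSMD3 and PSMG4, and of these PSMB3 and PSMB6 passed the bound in both.

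The departure from additivity, which is the log2 ratio of combination to untreated less the ratios of both single drugs, had a median of 0.23 over the members, beside 0.01 over all genes. It was 0.36 for the core particle, 0.23 for the regulatory particle and -0.07 for the immunoproteasome genes. No member departed by 2-fold, as 7.77% of all genes did. PSMB6 (0.89 [0.70, 1.08]), PSMB3 (0.73 [0.59, 0.87]) and PSMG4 (-0.70 [-1.06, -0.33]) departed by 1.5-fold, as 18.8% of all genes did. PSMD1 was at -0.06 [-0.18, 0.07], so that the combination was close to the sum of the single drugs on the log2 scale. All 4 libraries enter this value, and a deviation of any 1 of them moves it.

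**Figure D4:**
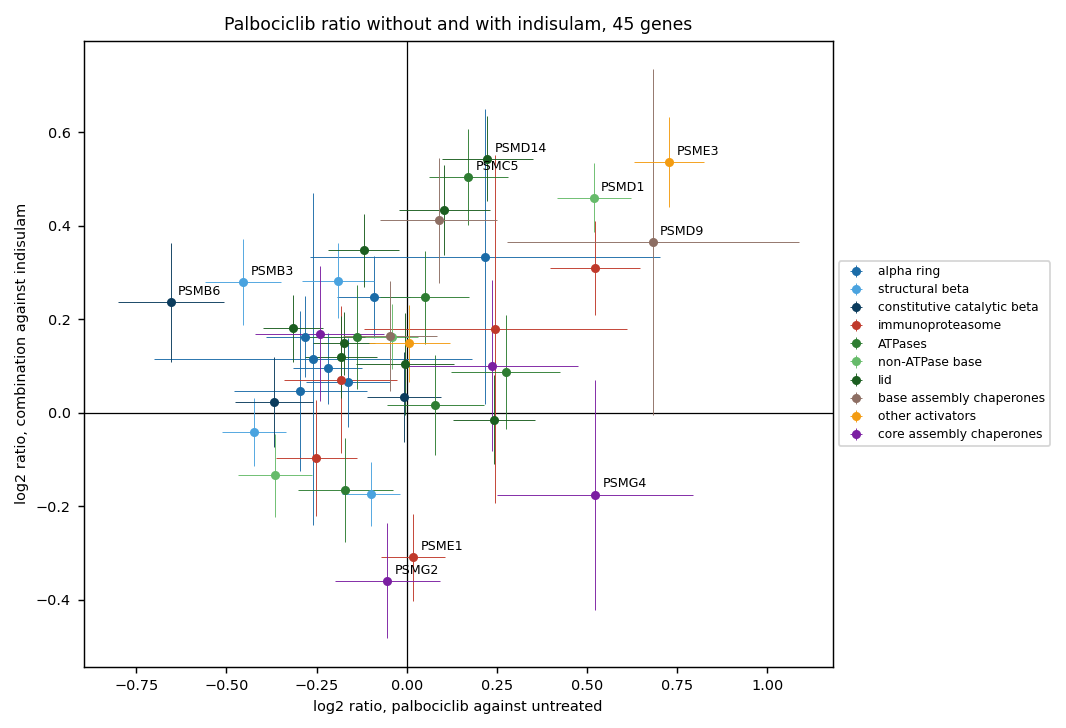
Log2 ratio of palbociclib to untreated (horizontal) and of combination to indisulam (vertical) for the 45 compared members, coloured by role; lines are 95% counting intervals. PSMB6 and PSMB3 lie in the upper left, below 0 without indisulam and above 0 with it, while PSME3 and PSMD1 are above 0 on both axes.

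Other genes of the pathway were taken from a list of 48, of which 47 were compared. In combination against untreated 5 of the 47 were called higher and 3 lower. By comparison, 23.5% of all genes were called, and 14.3% of all genes at 20 CPM or more. None was called in palbociclib against untreated or combination against indisulam (10.7% and 8.19% of all genes). In indisulam against untreated 3 were higher (15.1% of all genes called), and in combination against palbociclib 2 were lower (16.9%). ADRM1, a ubiquitin receptor of the base, was at 54.1 CPM untreated, 75.4 with palbociclib, 85.2 with indisulam and 110 with the combination, the same order of libraries as PSMD1. UFD1, a cofactor of the VCP unfoldase that hands substrates to the proteasome, was at 43.2, 61.9, 86.2 and 110 CPM. POMP, the maturation factor of the core particle, was at 89.3, 74.1, 115 and 121 CPM, with palbociclib the lowest as in the core particle.

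Of the genes that control proteasome transcription, NFE2L1, whose product activates proteasome genes when degradation is impaired, was at 396 CPM untreated, 452 with palbociclib, 337 with indisulam and 462 with the combination. NGLY1, the enzyme that removes glycans from that factor during its activation, was at 59.3, 44.9, 33.1 and 28.4 CPM, with a combination ratio of -1.06 [-1.23, -0.89]. The order of NGLY1 levels over the libraries was the reverse of that of PSMD1 and PSMD14.

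The interferon genes went in several directions. IRF1, an interferon-induced activator of PSMB9, was at 19.99 CPM untreated, 38.9 with palbociclib, 42.5 with indisulam and 50.8 with the combination, with a combination ratio of 1.34 [1.13, 1.55]. STAT2 was at 199, 222, 128 and 94.99 CPM, with -1.07 [-1.16, -0.97]. IRF1 was highest, and STAT2 lowest, in the library in which PSMB8 was lowest. IRF9 was called in indisulam against untreated at 1.16 [0.39, 1.93] on levels between 1.35 and 3.11 CPM. JAK2, a kinase of the interferon receptor, was called there at 1.36 [1.19, 1.54]. NLRC5, the transactivator of class I antigen presentation genes, was at 88.5, 88.2, 120 and 83.8 CPM.

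Of the peptide loading genes, TAP1, a subunit of the peptide transporter whose gene lies beside PSMB9, was at 149 CPM untreated, 135 with palbociclib, 127 with indisulam and 99.7 with the combination. TAP2, the other subunit, was at 17.5, 31.8, 26.6 and 49.2 CPM, with a combination ratio of 1.48 [1.27, 1.70]. As with PSME1 and PSME2, partners in 1 complex went in opposite directions, TAP1 being lowest and TAP2 highest in the combination library.

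The promoters of the members were read from the RefSeq set for GRCh38.p14, which spans 300 bases around each start. Of the 47 members 41 had an entry, with 49 promoters in all. PSMA7, PSMB1, PSMB6, PSMB7, PSMD4 and PSMG3 had none. Motifs were searched on both strands. The antioxidant response element, read by NFE2L1 and NFE2L2 and spelled TGACNNNGC here, was held by 30.6% of member promoters and 13.3% of all 35116 promoters. The interferon-stimulated response element, searched as GAAA and GAAA with any 2 bases between, was held by 14.3% and 3.57%, and by 4 of the 5 immunoproteasome genes (PSMB8, PSMB10, PSME1 and PSME2). The CCAAT box, spelled CCAAT, was held by 40.8% and 34.6%, and the gamma-activated sequence, spelled TTCNNNGAA, by 16.3% and 7.66%. These are matches of letters, and binding was not measured.

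For 6 members whose levels differed between the libraries, the 250 bases before the start are shown, read in the direction of transcription with the matches in capitals. PSMD1, PSMD14 and PSMD12 are regulatory particle genes that were highest in the combination library. The window of PSMD1 (chr2:231056617-231056866, plus strand) held no match, and its antioxidant response element lies after the start. In PSMD14 (chr2:161308175-161308424, plus strand) the capitals are CCAAT boxes on both strands that overlap, beginning 48 and 45 bases before the start. In PSMD12 (chr17:67366578-67366827, minus strand) they are an antioxidant response element 165 bases before it.
PSMD1: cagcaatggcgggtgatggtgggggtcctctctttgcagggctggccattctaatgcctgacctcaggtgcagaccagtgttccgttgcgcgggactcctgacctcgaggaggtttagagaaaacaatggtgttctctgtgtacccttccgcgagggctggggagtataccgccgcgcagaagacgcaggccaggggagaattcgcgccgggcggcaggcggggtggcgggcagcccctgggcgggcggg
PSMD14: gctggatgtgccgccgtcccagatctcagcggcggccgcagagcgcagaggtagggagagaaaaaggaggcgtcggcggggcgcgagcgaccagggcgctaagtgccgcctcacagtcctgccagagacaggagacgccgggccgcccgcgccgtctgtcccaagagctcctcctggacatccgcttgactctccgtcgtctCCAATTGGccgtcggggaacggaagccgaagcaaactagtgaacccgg
PSMD12: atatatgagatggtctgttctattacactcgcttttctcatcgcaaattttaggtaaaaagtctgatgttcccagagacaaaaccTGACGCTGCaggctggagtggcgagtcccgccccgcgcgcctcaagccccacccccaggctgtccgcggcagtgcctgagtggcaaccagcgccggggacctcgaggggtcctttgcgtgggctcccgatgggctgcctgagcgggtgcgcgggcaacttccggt

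PSMB8, PSMB9 and PSME2 are immunoproteasome genes, the first 2 lower and PSME2 higher with the combination. PSMB8 has 2 starts. The window of the upstream start held no match, and that of the downstream start (chr6:32844048-32844297, minus strand), shown here, held a gamma-activated sequence 65 bases before the start. The interferon-stimulated response element of PSMB8 spans the downstream start and so is not whole in the window. In PSMB9 (chr6:32853942-32854191, plus strand) the capitals are a CCAAT box 243 bases and an antioxidant response element on the other strand 148 bases before the start. In PSME2 (chr14:24146611-24146860, minus strand) they are an antioxidant response element 175 bases and an interferon-stimulated response element 28 bases before it. PSMB9 and PSME2 thus both held an antioxidant response element, and the interferon-stimulated response element was found in PSME2 and not in the window of PSMB9.
PSMB8: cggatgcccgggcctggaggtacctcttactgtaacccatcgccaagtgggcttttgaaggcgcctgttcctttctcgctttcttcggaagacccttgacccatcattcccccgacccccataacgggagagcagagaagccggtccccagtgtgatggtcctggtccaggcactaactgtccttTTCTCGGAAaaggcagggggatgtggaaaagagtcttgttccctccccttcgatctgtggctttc
PSMB9: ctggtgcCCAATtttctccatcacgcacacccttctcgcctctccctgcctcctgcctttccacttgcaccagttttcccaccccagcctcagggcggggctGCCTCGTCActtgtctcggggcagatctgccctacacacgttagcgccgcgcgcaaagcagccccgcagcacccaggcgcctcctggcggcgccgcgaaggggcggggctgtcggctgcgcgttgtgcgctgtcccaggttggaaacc
PSME2: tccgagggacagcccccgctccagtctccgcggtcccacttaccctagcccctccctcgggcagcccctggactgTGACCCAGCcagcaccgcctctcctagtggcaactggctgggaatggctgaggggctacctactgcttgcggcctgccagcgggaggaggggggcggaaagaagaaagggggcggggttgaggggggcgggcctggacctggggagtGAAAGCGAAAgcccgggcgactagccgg

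Sharing of transcripts limits some other values. Besides the 4 genes named above, PSMD9 shared 28.8% of its canonical exons with a gene on the same strand. PSMC1 shared 83.2% with NRDE2 on the opposite strand, PSMD7 shared 51.6% with another gene there and PSMC5 shared 13.7% with FTSJ3. The libraries were strand-specific, but whether strand was used in counting is not given in the sources used here, so the values of these genes may lack reads. The 44 annotated pseudogenes of 17 members held 78 reads in all over the 4 libraries.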

How the data were processed

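RNA sequencing was performed on 4 libraries of SUM159 cells, grouped by the treatment in the labels. The authors deposited raw counts of reads for each Ensembl gene, with no normalization. Per the labels, total RNA was extracted with Trizol and strand-specific mRNA libraries were made, and the submitters' processing notes name TopHat2 2.1, HTSeq and GRCh38. The methods of the study describe silica columns, with single-end reads for the senescence lists and paired-end reads for splicing, and which applies here is not stated. The annotation release and the strand setting are not given in the sources used here, nor whether duplicates were pooled. Reads that overlapped several genes or aligned to several places were tallied apart and not used.

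Counts were scaled to the mean total of the libraries (Python 3.11.15, numpy 2.4.6, pandas 2.3.3, scipy 1.17.1, matplotlib 3.10.9). Log2 ratios used a pseudocount of 1 and Poisson counting intervals at 95%, and genes under a mean of 1 CPM were left out. Intervals and the floor of 3 counts cover counting error only, and without molecular identifiers a read is not a separate molecule. The method was tested on simulated Poisson counts with no other spread, so that test does not cover variation between cultures. Symbols, exons and gene positions, counted from 1, came from GENCODE release 44, which matched 56104 of 60279 identifiers. Other normalization factors came from edgeR 4.0.16 (R 4.3.3), which ran no test here.

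Named with values in every library were the immunoproteasome and constitutive catalytic genes, members called changed in any comparison, and in each class the genes with the highest and lowest ratio in combination against untreated. The members that share transcripts, those called at 1.5-fold, and PSMC5, PSMD2, PSMD7, PSMD9 and PSMD12 were added after their values were seen. Genes of the pathway list were named when called, with POMP, NFE2L1, IRF1, NLRC5 and TAP1, and some genes of the lists are not reported here. The members and lists were chosen with earlier results of these data known. Comparisons that share a library are not independent of each other.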

Additional observations from a re-analysis of the deposited data

Results flagged for a closer look

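For 12 members, the ratio for a drug lay on one side of 0 without the other drug and on the opposite side with it, each beyond counting error. Only PSMB3 and PSMB6, for indisulam, passed the bound on the spread between libraries in both estimates. The difference between the estimates was not tested, since each condition had 1 library, and it equals the departure from additivity in log2. For palbociclib the members were PSMA5 (0.44), PSMA7 (0.31), PSMB2 (0.47), PSMB3 (0.73), PSMB6 (0.89), PSMD3 (0.50), PSMD8 (0.32), PSMD11 (0.47), PSMD13 (0.30) and PSMG1 (0.41). For indisulam they were PSMB3 (0.73), PSMB6 (0.89), PSMB7 (0.39), PSMD3 (0.50) and PSMG4 (-0.70). PSMB3, PSMB6 and PSMD3 stood in both lists, which rest on the same 4 libraries. Both lists are set by the same departure, so they are not independent of each other.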

How the results depend on the processing

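No paired analysis was possible because each condition had 1 library and no result came from a test between replicates. With a 1.5-fold threshold the number of members called was 3 in palbociclib against untreated, 3 in indisulam against untreated, 8 in combination against untreated and 9 in combination against palbociclib, which follows from the lower threshold. In combination against untreated the count went from 3 to 2 with TMM factors, with median-of-ratios factors and without the 4 genes that share transcripts. No other count moved. All 120 class medians under alternatives stayed between the median lower and median upper limits of their members' counting intervals, although medians near 0 changed sign. Of the ratios of named members 834 moved less than their counting interval and 6 moved more, all with TMM factors. With 62 to 166 reads in PSMA2, counting error alone spans 0.80 to 1.63 for its combination ratio. Leaving out the 4 genes that share transcripts, and the share of genes called at 20 CPM or more, were alternatives chosen after seeing the data.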
